A study of Mus musculus with 60 samples.

Results

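Axon guidance ligands and receptors were followed across the hippocampus of stressed and unstressed mice. The genes were chosen by name: ephrins and Eph receptors, semaphorins, plexins and neuropilins, netrins and Unc5 receptors, and Slits and Robos. In all 67 such genes were held, 35 of them ligands and 32 receptors in 15 families, among 13986 genes held in at least 1 table, and each of the 67 was present in all 10 tables. The samples were 60 RNA libraries from wild type C57BL/6 mice at postnatal day 105, in 12 groups of 5: whole, dorsal or ventral hippocampus, each from Homecage mice or from mice taken 45 minutes after Handling, Restraint or Swim. All 12 groups shared the strain, the wild type genotype and the age, and the labels name no agent or allele for any of them. The design states 5 mice per condition, and whether 1 mouse gave both a dorsal and a ventral sample is not stated. The labels name the treatments and describe them no further. The data used are 10 tables of the authors' own comparisons: each treatment against Homecage in each region, and ventral against dorsal hippocampus in Homecage mice.

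Guidance molecules steer growing axons in the embryo, and many stay on in the adult brain, where they shape spines, synapses and vessels. Eph receptors are tyrosine kinases that bind ephrins on a neighbouring cell, and both partners can signal. Semaphorins act through plexins, and the secreted class 3 members usually need a neuropilin as well. Netrins attract axons through Dcc and repel them through Unc5 receptors, netrin-Gs are membrane-anchored relatives that bind other partners, and Slits repel through Robos. In the developing hippocampus, graded ephrin-A and EphA expression helps to match projections to their targets along its long axis.

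Each table lists, per gene, both groups' mean estimated counts, a fold change with its log2 value, a p-value and a Benjamini-Hochberg adjusted p. A gene was called where that adjusted p was below 0.05. The tables used hold no values for individual libraries, so no SD stands beside a group mean. In its place, a standard error (SE) was worked out from the log2 fold change and its p-value. Levels are given as CPM, a gene's group mean divided by the sum over all genes and brought to the usual common total. These sums, which stand for the mean library depth of each group, ran from 19918572 to 25007858 estimated counts. The 3 listed markers of dorsal hippocampus were all lower in ventral tissue and the 5 of ventral hippocampus all higher, so the region labels matched their markers.

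Levels spanned a wide range when divided by the merged exon length of GENCODE M21, as a mean over the 12 groups. Slit1, a secreted repellent, was the most abundant member at 56.1 CPM per kb, and Epha4, a receptor that binds both ephrin classes, followed at 52.8. The next were Efnb3 at 40.8 CPM per kb, the receptor Unc5a at 37.6, the GPI-anchored semaphorin Sema7a at 36.6 and Plxna1 at 28.0. The highest members of other families were Efna3 at 25.6, Sema6b at 21.1, Ephb6 at 20.0, Nrp1 at 14.1, Sema4f at 11.2, Sema3e at 8.97, Sema5a at 8.55, Ntng2 at 7.92 and Robo2 at 6.27 CPM per kb. At the bottom were Sema3a at 0.28, Epha2 at 0.31 and Sema3b at 0.47 CPM per kb. No spread over libraries was held, so whether neighbours in this order differ was not tested. The order also depends on which gene length is used. Plxna1, Efna3, Ntng2 and Ntn5 share over 10% of their exon bases with another annotated gene, and their values are uncertain for that reason.

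The regional comparison in Homecage mice separated the members most. Ventral and dorsal hippocampus differed in 42 of 67 members (62.7%) in the authors' deposited table, where 38.4% of all genes were called. Of these, 17 members were higher in ventral tissue (18.4% of all genes) and 25 were lower (20% of all genes). Of 32 receptors 7 were higher and 16 lower in ventral tissue, and of 35 ligands 10 were higher and 9 lower. The median log2 fold change was -0.09 over members and -0.01 over all genes. At least 2-fold differences that were also called occurred in 12 members, 8 higher and 4 lower in ventral tissue, or 17.9% of members against 3.58% of all genes. Members were counted somewhat more deeply than other genes, with a median Homecage mean of 966 estimated counts against 631, and the median SE was 0.09 for both.

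**Figure D1:**
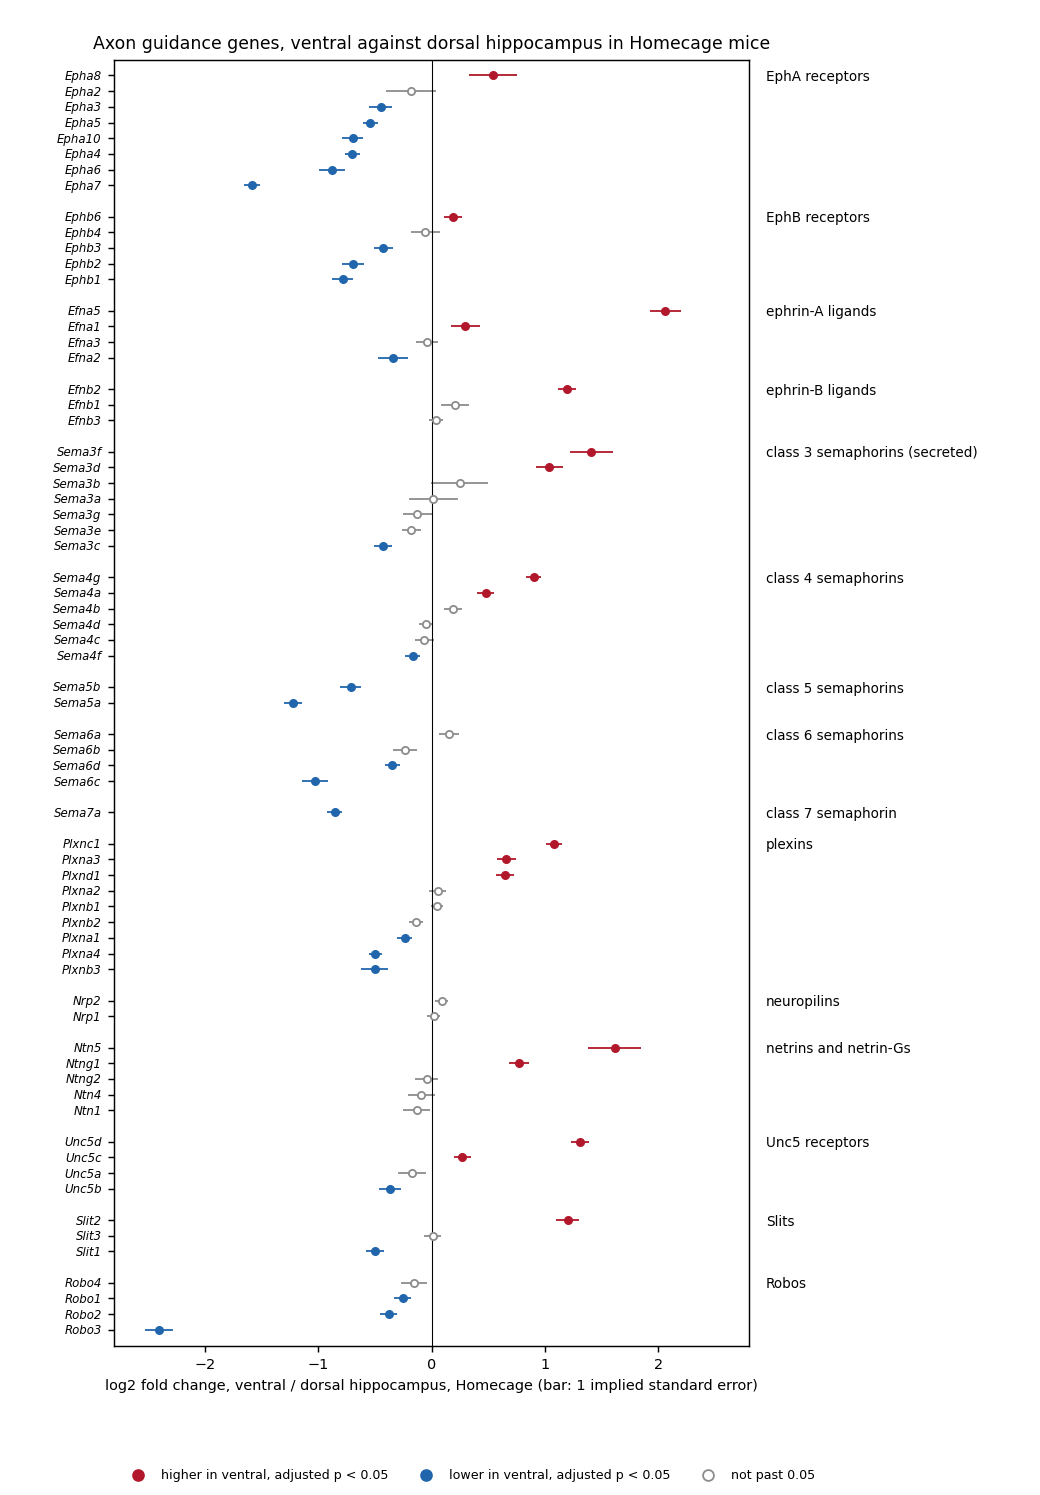
Log2 fold change of ventral over dorsal hippocampus in Homecage mice for the 67 members, grouped by family, from the authors' deposited table. Filled points passed an adjusted p of 0.05 and bars are 1 SE derived from the p-value. EphA receptors and Robos sit mostly left of 0, and Efna5 at 2.06 and Robo3 at -2.40 are the farthest apart.

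Eph receptors were mostly dorsal and several ephrins ventral. Of 8 EphA receptors, 6 were lower in ventral tissue and Epha8 alone was higher, and of 5 EphB receptors 3 were lower and Ephb6, which lacks kinase activity, was higher. Epha7 had the lowest adjusted p of all members. Its mean was 249, 263, 248 and 245 CPM in dorsal Homecage, Handling, Restraint and Swim, and 84.9, 87.5, 88.5 and 80.6 CPM in the ventral groups, in the same order. Every dorsal mean lay above every ventral one. The authors' deposited table gives Epha7 a log2 fold change of -1.58 (SE 0.07, adjusted p 4.91e-108). The gene lies on chromosome 4 from 28813131 to 28967499 (GRCm38, as for the other positions here). Smaller dorsal leads in the authors' deposited table were those of Epha6 at -0.88, Ephb1 at -0.78, Epha4 at -0.70, Epha10 at -0.70, Ephb2 at -0.69 and Epha5 at -0.54.

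Efna5 encodes an ephrin-A, a GPI-anchored ligand of EphA receptors, and it ran the other way. It was at 2.52, 2.36, 3.06 and 3.34 CPM in dorsal Homecage, Handling, Restraint and Swim, and at 10.8, 8.72, 8.78 and 8.22 CPM in the ventral groups. In whole hippocampus it lay between, at 6.12 to 6.99 CPM. The authors' deposited table puts Efna5 at a log2 fold change of 2.06 in Homecage mice (SE 0.14, adjusted p 2.53e-50), which is 4.18-fold. The gene lies on chromosome 17 from 62604184 to 62881317. Efnb2, a transmembrane ephrin, was at 23.5 CPM in dorsal and 55.3 CPM in ventral Homecage tissue, with a log2 fold change of 1.20 in the authors' deposited table (SE 0.08, adjusted p 4.02e-52). Efna1 was higher by 0.30 and Efna2 lower at -0.34 in the authors' deposited table, and Efna3, Efnb1 and Efnb3 did not pass.

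Slits and Robos differed within their families. Robo3, a divergent Robo that keeps commissural axons from responding to Slit before they cross the midline, was the most dorsal member. Its dorsal means were 68.6, 72.5, 61.2 and 66.0 CPM in Homecage, Handling, Restraint and Swim, against 13.3, 15.9, 14.8 and 15.3 CPM in ventral tissue. The authors' deposited table gives -2.40 for Robo3 (SE 0.12, adjusted p 4.43e-80), on chromosome 9 from 37415669 to 37433246. The lowest dorsal mean was above the highest ventral one. Robo1 and Robo2, the main neuronal Slit receptors, were also lower in ventral tissue, at -0.26 and -0.38 in the authors' deposited table. Their ligands parted: in the authors' deposited table Slit2 was higher in ventral tissue at 1.20 (SE 0.10, adjusted p 9.08e-29), Slit1 lower at -0.50 (SE 0.08, adjusted p 2.83e-09), and Slit3 was at 0.01 and did not pass.

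Stretches just before the start sites are shown for the most ventral member, Efna5, and the most dorsal, Robo3 and Epha7. They come from RefSeq promoter windows on GRCm38.p6, which reach from 250 bases before to 50 bases after a gene's start, and 58 of the 67 members had such a window. Capitals mark CpG dinucleotides. Efna5 lies on the minus strand and the stretch is chr17:62881318-62881467. Robo3 is also on the minus strand at chr9:37433247-37433425, and ends 72 bases before its RefSeq start, where the GENCODE M21 gene begins. Epha7 is on the plus strand at chr4:28812981-28813130.
Efna5: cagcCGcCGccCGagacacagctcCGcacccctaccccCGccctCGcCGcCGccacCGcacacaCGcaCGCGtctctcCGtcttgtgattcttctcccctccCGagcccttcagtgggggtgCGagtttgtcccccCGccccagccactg
Robo3: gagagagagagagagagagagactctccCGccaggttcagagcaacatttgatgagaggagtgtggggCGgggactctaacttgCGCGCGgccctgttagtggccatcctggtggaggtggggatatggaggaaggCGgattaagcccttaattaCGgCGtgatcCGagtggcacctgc
Epha7: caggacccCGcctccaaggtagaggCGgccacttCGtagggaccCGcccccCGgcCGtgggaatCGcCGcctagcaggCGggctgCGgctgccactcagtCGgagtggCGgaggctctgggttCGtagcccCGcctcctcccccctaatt
The stretches hold 16, 9 and 14 CpG dinucleotides in 150, 179 and 150 bases, and their GC content is 71.3%, 58.1% and 71.3%. Over the 74 windows of members the median GC content was 64.2%, against 52.7% over all 32851 windows. The equal GC content of Efna5 and Epha7 holds only for the stretches shown. Over its full window Efna5 was at 73.3%, above both windows of Epha7. Whether GC content before the start goes with the regional order was not tested.

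Semaphorins differed in part by class. Both class 5 members were lower in ventral tissue, and so were Sema7a and 2 of 4 class 6 members, while no class 5, 6 or 7 member was higher. Sema5a, a transmembrane semaphorin with thrombospondin repeats, was at 225 CPM in dorsal and 98.6 CPM in ventral Homecage tissue. The authors' deposited table gives it -1.23 (SE 0.08, adjusted p 4.97e-51), with Sema6c at -1.03, Sema7a at -0.86, Sema5b at -0.71 and Sema6d at -0.35. Ventral leads fell in classes 3 and 4, which each had 2 members higher and 1 lower. In class 3 another 4 members were not called, and in class 4 another 3. The class 4 member that was lower was Sema4f. In the authors' deposited table Sema3f, a secreted ligand that acts through neuropilin-2, was higher at 1.41 (SE 0.19), Sema3d at 1.04, Sema4g at 0.90 and Sema4a at 0.48, and Sema3c was lower at -0.43. Sema3f and Sema3d are scarce, at 1.68 and 4.43 CPM in dorsal Homecage tissue against 4.56 and 9.36 CPM in ventral.

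Plexins divided evenly, with 3 of 9 higher and 3 lower in ventral tissue. Plxnc1, the receptor of Sema7a, was at 44.0 CPM in dorsal and 95.5 CPM in ventral Homecage tissue, with a log2 fold change of 1.08 in the authors' deposited table (SE 0.07, adjusted p 2.59e-55). Its ligand Sema7a thus had the opposite regional order, at 161 CPM in dorsal and 91.3 CPM in ventral tissue. Plxna3 and Plxnd1 were higher at 0.66 and 0.64 in the authors' deposited table, and Plxnb3, Plxna4 and Plxna1 lower at -0.50, -0.50 and -0.24. Neither neuropilin passed: Nrp1 was at 0.02 and Nrp2 at 0.09 in the authors' deposited table, with 95% intervals from -0.10 to 0.13 and from -0.02 to 0.20.

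Netrin family genes that differed were higher in ventral tissue. Ntng1, whose netrin-G1 product sits on axons and binds a synaptic partner, was at 33.2 CPM in dorsal and 58.0 CPM in ventral Homecage tissue, a log2 fold change of 0.77 in the authors' deposited table (SE 0.09, adjusted p 1.17e-17). Ntn5 was higher at 1.62 (SE 0.23) in the authors' deposited table, from 1.83 to 5.78 CPM. Ntn1, Ntn4 and Ntng2 did not pass. Among the Unc5 receptors, Unc5d, a marker of upper cortical layers in development, was at 20.7 and 52.8 CPM, with 1.31 in the authors' deposited table (SE 0.08, adjusted p 1.86e-57). Unc5c was higher at 0.27 and Unc5b lower at -0.37 in the authors' deposited table, and Unc5a did not pass.

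Cell-type markers differed between the regions too. In the same authors' deposited table, of 6 dentate granule cell markers 5 were lower in ventral tissue (median log2 fold change -1.16), as were 8 of 8 oligodendrocyte markers (median -0.63) and 5 of 6 microglial markers. Higher in ventral tissue were 5 of 7 neocortical layer markers, 4 of 7 thalamic markers and 6 of 9 meningeal fibroblast markers. In these lists 1 neocortical and 1 thalamic marker were lower, and 1 dentate marker was higher. Of CA2 and CA3 pyramidal cell markers 5 of 7 were lower and 1 higher, and of CA1 markers 3 of 5 were lower and 1 higher. Dcn, also on the ventral hippocampus list, was at 6.85 and 84.8 CPM in dorsal and ventral Homecage tissue, within meningeal sums of 66.2 and 173 CPM. Summed levels in dorsal and ventral Homecage tissue were 599 and 321 CPM for the dentate list and 4501 and 3019 CPM for the oligodendrocyte list. The part of tissue composition in the regional differences of guidance genes was not tested, and fewer cells of a type and less RNA per cell cannot be told apart in such samples.

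The treated groups hold separate libraries of both regions, so the regional order could be read again in each. Ratios here are log2 of ventral over dorsal CPM with 0.5 CPM added to each. Of the 42 members called in Homecage mice, 40 kept their direction in Handling, 39 in Restraint and 39 in Swim, and 39 did so in all 3. Among all genes called and held in every group the share with the same direction in all 3 was 81.3% of 5099, against 92.9% of members. The exceptions among members were Efna2, Plxna1 and Sema4f, whose Homecage ratios were -0.28, -0.20 and -0.12. By treatment, the shares of members and of all genes were 95.2% and 96.8% in Handling and 92.9% and 91.7% in Restraint. They parted in Swim, at 92.9% and 83.8%. Called members also had larger Homecage ratios, with a median of 0.65 in the called direction against 0.35 over all genes called. Robo3 ranged from -2.33 to -2.02 and Epha7 from -1.60 to -1.48 over the 4 conditions. Slit2 ranged from 1.20 to 1.37, Efnb2 from 1.08 to 1.28 and Plxnc1 from 1.02 to 1.11. These values vary little beside their size. Across the 67 members the ratio correlated with that in Homecage at a Pearson r of 0.95 in Handling, 0.91 in Restraint and 0.92 in Swim (Spearman 0.94, 0.87 and 0.87), as a description over genes that share libraries within each condition.

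**Figure D2:**
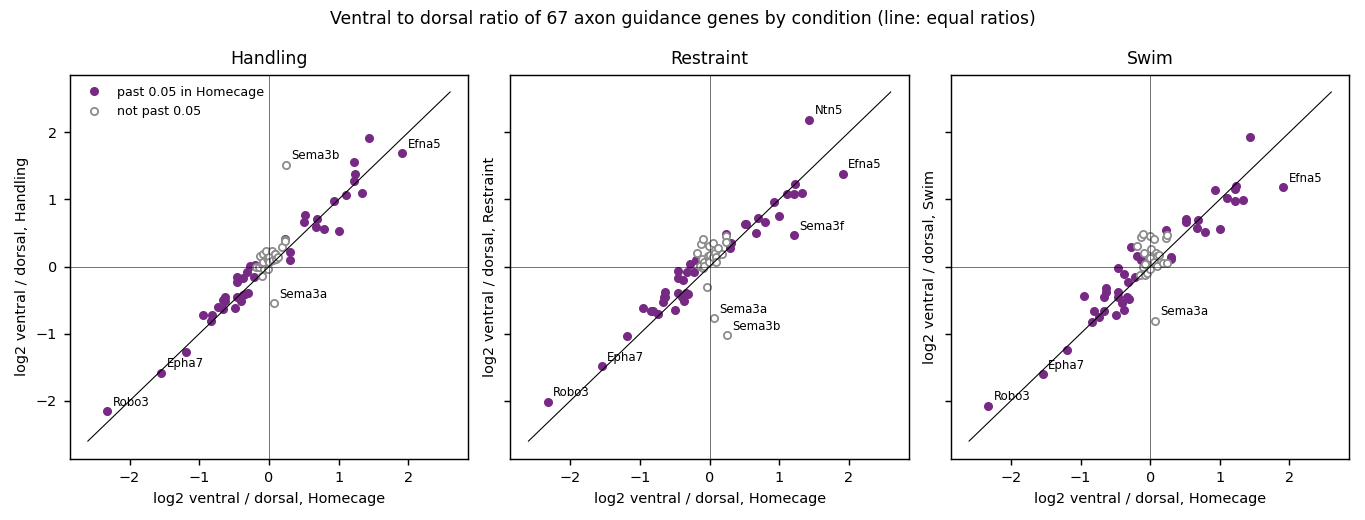
Log2 ventral to dorsal ratio of CPM plus 0.5 for the 67 members in Handling, Restraint and Swim, each against the ratio in Homecage, with the line of equal ratios. Filled points were called in Homecage. Robo3 and Epha7 stay near the line, Efna5 moves down from 1.91 to 1.18 in Swim, and Sema3b and Sema3a leave the line, Sema3b at 1.52 in Handling and -1.02 in Restraint.

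Some members left that pattern. Sema3a, the secreted repellent that signals through neuropilin-1 and plexin-A receptors, had a ratio of 0.07 in Homecage and -0.55, -0.77 and -0.81 in Handling, Restraint and Swim. Slit1 went from -0.46 in Homecage to -0.02 in Swim, and Efna5 from 1.91 to 1.18. Whole hippocampus, measured in other libraries, lay between dorsal and ventral Homecage levels for 12 of the 12 members that differed at least 2-fold, for 30 of the 42 called and for 34 of all 67. The share over all genes was not worked out, so this does not set the members apart from other genes.

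Few members were called in the treatment tables, and each such call came in a ventral one. In whole hippocampus no member was called in the authors' deposited tables for Handling, Restraint or Swim, where 0.395%, 0.541% and 0.395% of all genes were. In dorsal hippocampus none was called either, against 0.125%, 0.616% and 0.447% of all genes. At an unadjusted p below 0.05 the authors' deposited tables hold 4, 3 and 2 members in whole and 2, 11 and 13 in dorsal hippocampus, where 5.06%, 3.92% and 5.2% (whole) and 2.84%, 9.6% and 11.2% (dorsal) of all genes reach that level. In ventral hippocampus 1 member was called after Handling, 5 after Restraint and 13 after Swim. The share of all genes called in these authors' deposited tables was 0.856%, 2.39% and 6.94%, against 1.49%, 7.46% and 19.4% of members. Handling and Restraint calls were all higher than Homecage (0.813% and 1.48% of all genes were higher). Swim calls were 10 higher and 3 lower, where 4.65% and 2.29% of all genes were. At an unadjusted p below 0.05 the ventral authors' deposited tables hold 11, 22 and 31 members, against 7.28%, 12.7% and 24% of all genes. The 3 ventral tables share the same Homecage libraries, so they are not independent.

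**Figure D3:**
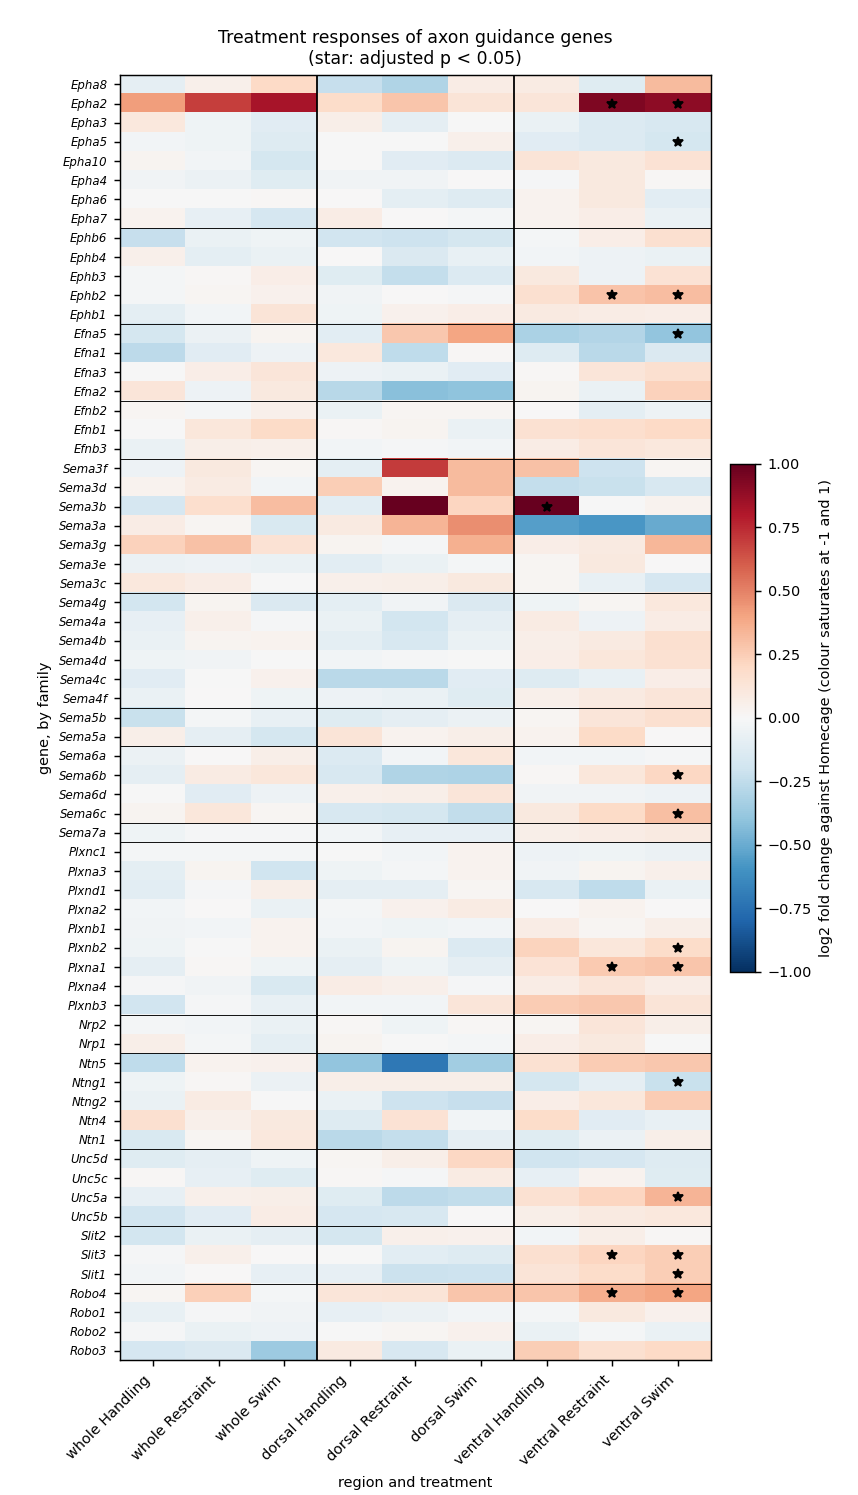
Log2 fold change against Homecage of the 67 members (rows, by family) in 9 region and treatment pairs (columns), from the authors' deposited tables. A star marks an adjusted p below 0.05, and all stars lie in the 3 ventral columns. Epha2 stands out in whole and ventral hippocampus after Restraint and Swim.

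Epha2 rose after both stressors in ventral hippocampus. It encodes a receptor for ephrin-A1 that is best known from epithelia and vessels, and it is one of the scarcest members here. The gene lies on chromosome 4 from 141301240 to 141329384. Its mean in ventral tissue was 1.11 CPM in Homecage, 1.21 in Handling, 2.11 in Restraint and 2.07 in Swim, from mean estimated counts of 27.8, 29.4, 52.6 and 50.8. In whole hippocampus it was 0.99, 1.33, 1.60 and 1.75 CPM, and in dorsal hippocampus 1.22, 1.39, 1.46 and 1.34 CPM, in the same order. The Homecage mean was the lowest of the 4 in every region. The authors' deposited table gives a ventral log2 fold change of 0.94 after Restraint (SE 0.19, adjusted p 0.000157) and 0.90 after Swim (SE 0.20, adjusted p 0.00108). In whole hippocampus the authors' deposited tables give 0.69 (adjusted p 0.172) and 0.83 (adjusted p 0.0774), which did not pass, and in dorsal hippocampus 0.28 and 0.13, which did not pass either. The ventral minus dorsal difference was 0.65 after Restraint (SE 0.32, adjusted p 0.343) and 0.77 after Swim (SE 0.32, adjusted p 0.0962), so a regional difference in the Epha2 response was not shown.

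Start regions of the members were searched on both strands for 4 patterns of letters that stress- and activity-driven factors are known to bind. These were the cAMP response element TGACGTCA, the AP-1 site TGACTCA, the early growth response site GCGTGGGCG and the glucocorticoid response element, AGAACA and TGTTCT with 3 bases of any kind between them, none of which contains another. Epha2 held the cAMP response element, in the only one of the 74 member windows that did, and 1.79% of all 32851 windows hold it. The AP-1 letters were found in a window of Sema6b and one of Sema4c (5.20% of all windows), the early growth response letters in Efna3 and Plxna2 (0.612%), and the glucocorticoid letters in no member window (0.00913%). A match is a description of letters and not of binding. Shown are Epha2, the member with the largest rise in ventral hippocampus after Restraint and Swim, and for comparison Sema6b, which was called as higher in ventral Swim, and Efna3, which was called in no treatment table, with the matched letters in capitals. They lie before a start at chr4:141300971-141301220 (plus strand), chr17:56133853-56133952 (minus strand) and chr3:89322999-89323089 (minus strand) of GRCm38.p6.
Epha2: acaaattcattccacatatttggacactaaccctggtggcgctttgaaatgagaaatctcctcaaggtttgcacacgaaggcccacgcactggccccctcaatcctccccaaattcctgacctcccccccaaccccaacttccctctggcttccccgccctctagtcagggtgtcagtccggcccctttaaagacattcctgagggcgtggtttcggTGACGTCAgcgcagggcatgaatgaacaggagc
Sema6b: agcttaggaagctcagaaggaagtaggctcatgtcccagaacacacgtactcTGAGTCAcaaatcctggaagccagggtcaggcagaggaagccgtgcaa
Efna3: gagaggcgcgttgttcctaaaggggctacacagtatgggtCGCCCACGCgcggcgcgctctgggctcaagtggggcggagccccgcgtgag
Sema6b was at -0.31 in dorsal Swim in the authors' deposited table and did not pass there (adjusted p 0.22). In Epha2 the first letter of the match lies 33 bases before the RefSeq start, in Sema6b 48 and in Efna3 110. The Sema6b and Efna3 matches read on the opposite strand, so their capitals are the reverse complement of the letters given above. No window was held for Sema3b.

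Plxna1 had the lowest adjusted p of the members after Swim. It encodes a receptor of class 3 and class 6 semaphorins and lies on chromosome 6 from 89316314 to 89362620. Its ventral mean was 243 CPM in Homecage, 269 in Handling, 290 in Restraint and 294 in Swim. In dorsal tissue it was 278, 264, 271 and 263 CPM, and in whole tissue 223, 209, 225 and 214 CPM. The ventral mean lay below the dorsal in Homecage and above it in all 3 treatments. The authors' deposited table gives 0.27 after Restraint (SE 0.06, adjusted p 0.000593) and 0.28 after Swim (SE 0.06, adjusted p 0.000249). Because Plxna1 shares 10.7% of its exon bases with another gene, its counts may not be its alone.

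Robo4, Slit3 and Ephb2 also rose after both stressors in ventral tissue, in calls that were lost once a trend on GC content was subtracted, though the values kept their direction. Robo4, a Robo of endothelial cells, was at 6.05, 7.34, 7.70 and 7.89 CPM in ventral Homecage, Handling, Restraint and Swim. The authors' deposited tables put it at 0.36 after Restraint (SE 0.10, adjusted p 0.0285) and 0.39 after Swim (SE 0.10, adjusted p 0.00565). Slit3 was at 86.8, 97.7, 99.8 and 103 CPM in the ventral groups, with 0.21 and 0.25 in the authors' deposited tables (adjusted p 0.0362 and 0.00749). Ephb2, a receptor of ephrin-Bs at excitatory synapses, was at 28.5, 31.9, 34.3 and 35.2 CPM, with 0.28 and 0.31 (adjusted p 0.0382 and 0.02 in the authors' deposited tables). For each of these genes the ventral Handling mean also lay above that of Homecage, the group that both calls were made against. Their dorsal and whole values did not pass. Endothelial markers beside Robo4 and Epha2 were called in 0 of 8 cases in both authors' deposited tables, and their summed level was 242 CPM in ventral Homecage, 232 in Restraint and 234 in Swim. Other lists did move: of 7 hippocampal markers 4 were higher in ventral Restraint and 3 in ventral Swim, with summed levels of 1037 CPM in Homecage, 1146 in Restraint and 1086 in Swim. Of 7 thalamic markers 2 were lower in ventral Swim, from 151 to 131 CPM summed. Their part in the values of guidance genes was not tested.

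After Swim 8 further members were called in ventral hippocampus, and none of the 8 passed once the same trend was subtracted. Those that rose were ligands of the semaphorin and Slit families and 2 receptors. The authors' deposited table gives Slit1 0.25 (adjusted p 0.0113), Sema6c 0.30 (adjusted p 0.00906), Sema6b 0.21 (adjusted p 0.0421), the receptor Plxnb2 0.18 (adjusted p 0.0096) and the receptor Unc5a 0.34 (adjusted p 0.0253). Slit1 went from 299 to 353 CPM and Unc5a, which carries repulsive netrin signals, from 157 to 198 CPM. The falls were Efna5 at -0.40 (SE 0.10, adjusted p 0.00612), Epha5 at -0.17 (SE 0.05, adjusted p 0.0183) and Ntng1 at -0.22 (SE 0.08, adjusted p 0.0479) in the authors' deposited table. Efna5 and Epha5, a ligand and a receptor that bind each other, were thus both called as lower in the deposited values. In Homecage Efna5 was the ventral and Epha5 the dorsal partner. With the trend subtracted Efna5 was at -0.33 (adjusted p 0.0989), Epha5 at -0.08 (adjusted p 0.808) and Ntng1 at -0.17. Unc5a was then at 0.09, Sema6c at 0.03 and Sema6b at -0.07, so the direction of Sema6b turned.

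**Figure D4:**
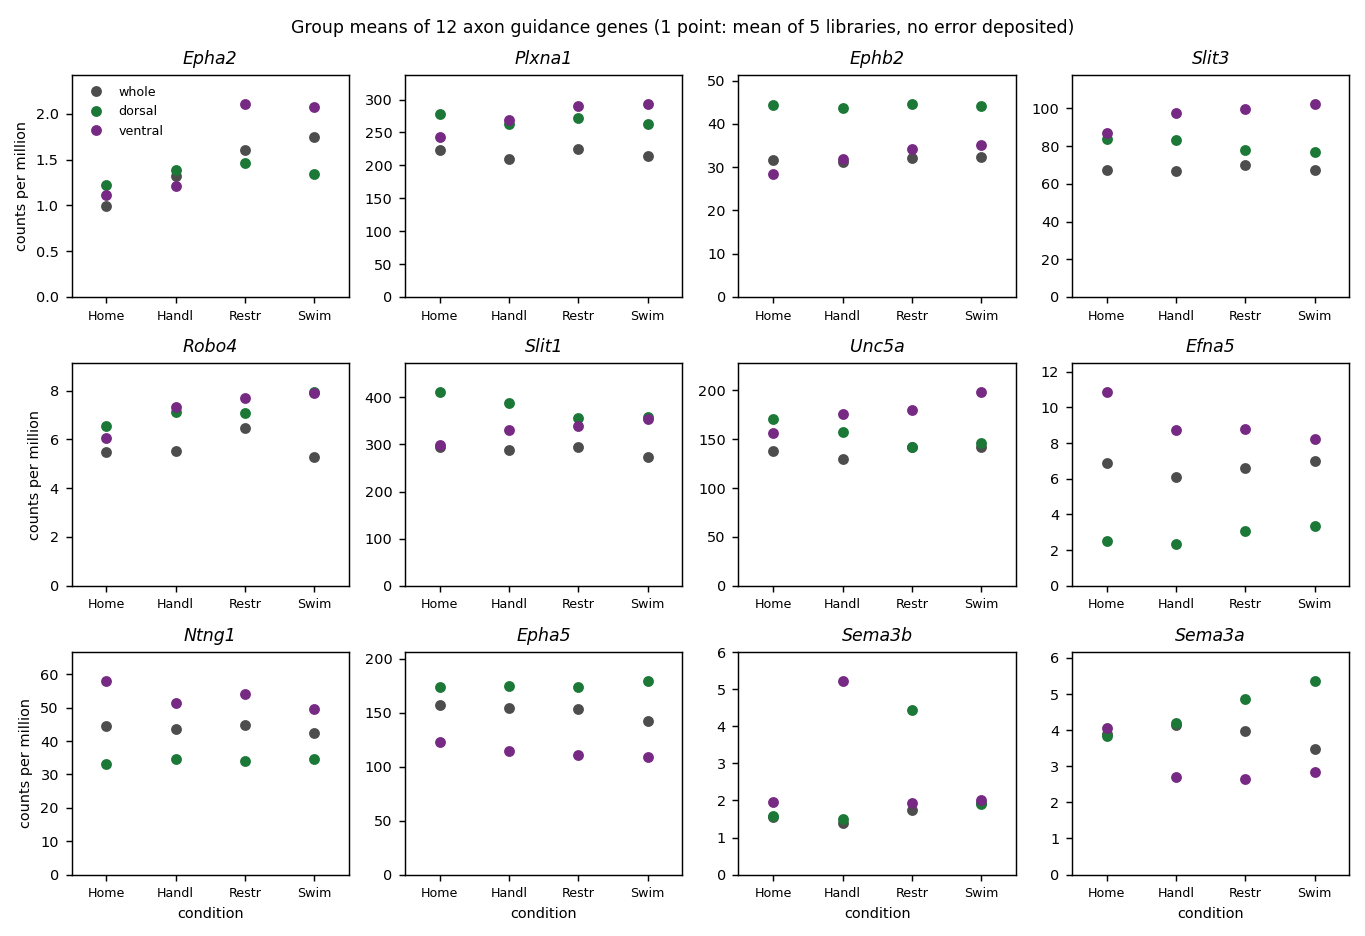
Mean CPM of 12 members in the 12 groups, 1 point for each mean of 5 libraries, with axes that start at 0. Ventral means of Plxna1, Slit3, Slit1 and Unc5a lie higher in Swim than in Homecage, dorsal means lie lower, and Sema3b departs only in ventral Handling and dorsal Restraint.

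Log2 fold changes in these ventral tables went with the GC content of the transcripts. Members have a median GC content of 56.1% against 50.2% over all genes, and 45 of 67 lie above the latter. Across genes, the Spearman correlation of log2 fold change with GC content in ventral Swim was 0.70 over all genes and 0.72 over the 67 members, as a description. A smooth trend of log2 fold change on GC content was then subtracted from every table. Epha2 then remained called in both ventral tables, at 0.89 after Restraint (adjusted p 0.000558) and 0.79 after Swim (adjusted p 0.0117). Plxna1 stayed at 0.20 after Restraint (adjusted p 0.0257) and was at 0.16 after Swim (adjusted p 0.294). No other member called after Restraint or Swim passed. Some kept much of their size: after Swim Robo4 was at 0.28 and Ephb2 at 0.22, and after Restraint they were at 0.30 and 0.24. Plxnd1 passed as lower after Restraint at -0.35 (adjusted p 0.0021), from -0.25 (adjusted p 0.0562) in the authors' deposited table. Calls thus came to 3 members after Restraint and 1 after Swim, where 1.74% and 0.801% of all genes were called. After Handling Sema3b stayed called at 1.34 (adjusted p 0.0129), where 0.698% of all genes were. The origin of the trend on GC content was not tested.

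**Figure D5:**
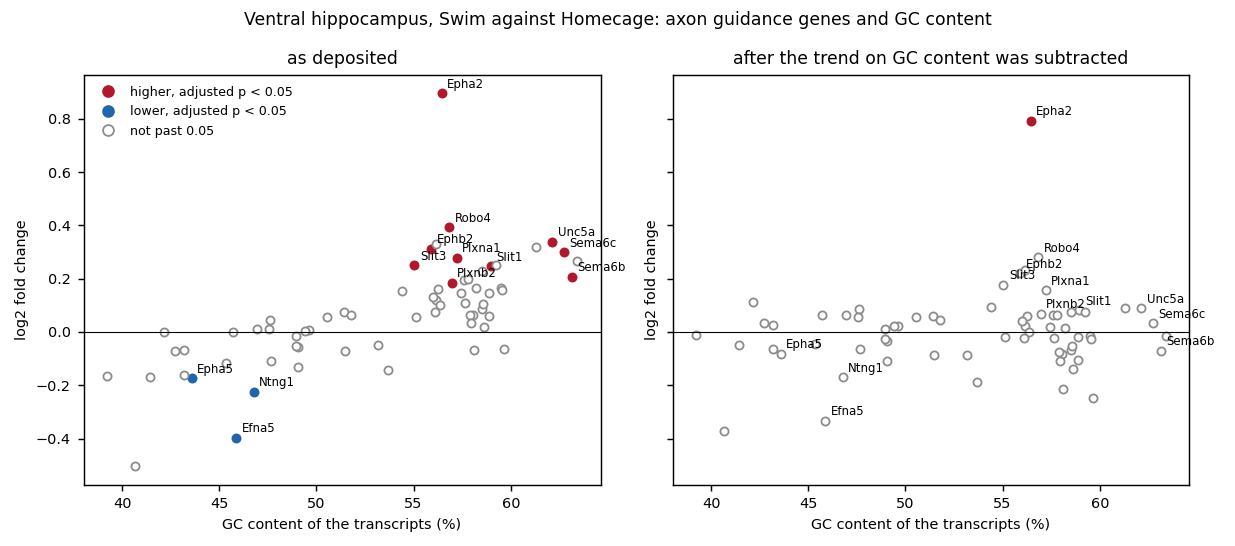
Log2 fold change of the 67 members in ventral hippocampus after Swim against the GC content of their transcripts in percent, as deposited and after the trend was subtracted. Filled points passed an adjusted p of 0.05, 13 as deposited and 1 after subtraction. The rising slope is visible in the deposited values, and Epha2 lies apart from it in both panels.

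The regional count changed little once the trend on GC content was subtracted. After subtraction 43 members were called, 21 higher and 22 lower in ventral tissue, against 31.7% of all genes. Of the 42 members called before, 38 remained, and Unc5b, Plxna1, Efna2 and Sema4f were lost. Sema4b, Efnb1, Efnb3 and Plxnb1 became called as higher and Sema3e as lower.

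Sema3b, a secreted class 3 semaphorin, was the single member called after Handling. It was at 1.56, 1.39, 1.74 and 1.92 CPM in whole Homecage, Handling, Restraint and Swim, and at 1.97, 5.22, 1.94 and 2.01 CPM in ventral tissue. In dorsal tissue it was at 4.46 CPM in Restraint and at most 1.91 CPM in the other groups. Ventral Handling and dorsal Restraint stand apart from the other 10 groups. The authors' deposited tables give 1.41 in ventral Handling (SE 0.34, adjusted p 0.00609) and 1.49 in dorsal Restraint (SE 0.59, adjusted p 0.308), the latter not called. Markers of choroid plexus, the tissue that makes cerebrospinal fluid, moved in the same 2 groups. In the authors' deposited table for ventral Handling 12 of 12 listed markers were higher, and their summed level was 54.9 CPM in Homecage and 1334 CPM in Handling. Of these 12 only 5 were held in the ventral Restraint and ventral Swim comparisons. The others were thus held in ventral tissue only where they were high, and the count of 12 rests in part on that. In the authors' deposited table for dorsal Restraint 4 of 7 held markers were higher, from 79.6 to 1368 CPM. Elsewhere the markers held summed to between 44.5 and 136 CPM. The part of choroid plexus tissue in the Sema3b values was not tested.

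Whether ventral and dorsal hippocampus responded differently was tested directly: the dorsal log2 fold change was taken from the ventral one, and both SEs were combined. After Handling no member differed (0.0889% of all genes did), with 3 at an unadjusted p below 0.05 (2.49% of all genes). After Restraint 5 members differed, 7.46% of members against 1.98% of all genes, and all 5 differences were positive (1.75% of all genes). After Swim 14 differed, 20.9% against 10.2%, of which 10 were positive (6.93% of all genes) and 4 negative (3.29%). At an unadjusted p below 0.05 there were 18 members after Restraint and 25 after Swim, against 13% and 27.2% of all genes. Among the members that passed after Swim, the largest positive difference was that of Efna2 at 0.63, which stood at 0.23 in ventral and -0.40 in dorsal tissue. Slit1 had the lowest adjusted p in both treatments: its response was 0.18 in ventral and -0.21 in dorsal tissue after Restraint, and 0.25 and -0.21 after Swim, which gives differences of 0.40 (SE 0.10, adjusted p 0.0152) and 0.46 (SE 0.10, adjusted p 0.00159). Unc5a, Sema6b, Plxna1 and Slit3 also differed in both. In the other direction Efna5 was at -0.40 in ventral and 0.40 in dorsal tissue after Swim, and Sema3a at -0.50 and 0.46. After the trend on GC content was subtracted from both tables no member passed an adjusted p of 0.05. Of all genes 0.0817% passed it after Handling, 0.0371% after Restraint and 0.2% after Swim. At an unadjusted p below 0.05 there were then 9 members after Restraint and 7 after Swim. The share of all genes at that unadjusted level was not worked out. Efna5 was then at -0.67 and Sema3a at -0.73 after Swim, and Slit1 at 0.14. Treated groups of the 2 regions differed in the sign of their GC trend: over the members its Spearman correlation was -0.56 in dorsal Swim, opposite to that in ventral Swim.

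Other genes of the guidance pathways were read from a list of 63, of which 62 were held. In ventral Homecage tissue 21 of 62 were higher and 16 lower in the authors' deposited table, where 18.4% and 20% of all genes were. Downstream of Eph receptors 5 of 9 genes held were lower and 2 higher. For these the authors' deposited table has -0.76 for Kalrn (adjusted p 4.89e-28), a signalling protein of dendritic spines, -0.51 for Chn1, a Rac regulator downstream of EphA4, and -0.52 for Tiam1. Effectors of semaphorins and plexins were higher in 8 of 20 cases and lower in 2. Among those higher was Dpysl3, a collapsin response mediator protein, at 0.69 in the authors' deposited table (adjusted p 2.53e-19). Flrt1 and Flrt3, ligands of Unc5 receptors, were higher at 0.77 and 0.68 in the authors' deposited table, as was the adhesion molecule L1cam at 0.77 (adjusted p 2.5e-22). Gpc1, a proteoglycan that binds Slits, was lower at -0.66 in that table.

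Pathway genes were also read in the treatment tables. None of 62 was called in whole hippocampus, dorsal hippocampus or ventral Handling in the authors' deposited tables, with 1 to 4 at an unadjusted p below 0.05. Between 0.125% and 0.856% of all genes were called in these tables, so a count of 0 among 62 genes is near that background. In ventral tissue 1 of 62 was called after Restraint and 3 after Swim, where 2.39% and 6.94% of all genes were. After Restraint in ventral tissue Mical3, an oxidoreductase that acts downstream of plexins, had a log2 fold change of 0.19 (adjusted p 0.0075) in the authors' deposited table. The authors' deposited table for ventral Swim gives 0.17 for Mical3 (adjusted p 0.0115), 0.22 for Gpc1 (adjusted p 0.0388) and -0.16 for the adhesion molecule Chl1 (adjusted p 0.0437). After the trend on GC content was subtracted Mical3 remained after Restraint at 0.16 (adjusted p 0.0456) and none of the 3 remained after Swim.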

How the data were processed

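Poly(A)-enriched RNA of 60 libraries, 5 for each of 12 groups, was sequenced, per the labels. The authors deposited 10 tables of comparisons. Per the file headers they hold group means of estimated counts, a fold change, its log2 value, a p-value and an adjusted p-value. The authors' test and counting program: not given in the sources used here. Bowtie 0.12.2 and mm8 appear in the submitters' processing notes, with no role. Each table repeated 144 to 148 entries, which were removed, and 13610 to 13784 genes were left. In every table the deposited adjusted p matched Benjamini-Hochberg over all entries. Some items of the tables are not analysed here.

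Calls are the authors' adjusted p below 0.05. No count test was run, since no values of single libraries were held. The SE is the size of the log2 fold change divided by the normal quantile that its p-value gives, and 95% intervals rest on it. Regional differences in response used a normal test on 2 such errors, adjusted over all genes, which ignores any pairing of regions. The GC trend is a lowess fit (fraction 0.3) on GENCODE M21 transcripts (GRCm38). This fit, the SE and the test of differences were tested on simulated data. Motifs were searched in RefSeq windows of GRCm38.p6. Tools were Python 3.11.15, pandas 2.3.3, scipy 1.17.1 and statsmodels 0.14.6.

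Named members are up to 8 in each direction per treatment comparison by adjusted p, up to 14 in each direction in the regional table, the highest member of each family by level, and up to 4 pathway genes in each direction. Names beyond these limits, among them Unc5a and Sema6b in ventral Swim, Efna2 and Ephb6 in the regional difference after Swim, Plxnd1, the neuropilins and the weaker regional members, were chosen after their values were seen. The members, lists and rules were chosen with earlier results of these data known. Alternatives were other thresholds, scaling by total counts, trends on GC content and length, a minimum mean of 50 and 1 entry per gene in the adjustment.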

Additional observations from a re-analysis of the deposited data

Results flagged for a closer look

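The responses of 5 members to Restraint and of 14 to Swim differed between ventral and dorsal hippocampus by the direct test of the difference in log2 fold change. After Restraint the ventral minus dorsal differences were 0.40 for Slit1, 0.31 for Plxna1, 0.48 for Unc5a, 0.41 for Sema6b and 0.32 for Slit3, with adjusted p from 0.0152 to 0.0455. After Swim the receptors with a positive difference were Plxna1 at 0.37, Unc5a at 0.58, Plxnb2 at 0.32 and Ephb6 at 0.34. The ligands were Slit1 at 0.46, Slit3 at 0.38, Sema6b at 0.51, Sema6c at 0.54, Ntng2 at 0.48 and Efna2 at 0.63. Negative differences after Swim were those of Efna5 at -0.79, Sema3a at -0.97, Sema3d at -0.48 and the receptor Unc5d at -0.34. Adjusted p after Swim ran from 0.00159 to 0.0459. The values of Efna5, Sema3a and Unc5d after Swim were -0.67, -0.73 and -0.29 with a trend on GC content subtracted, and those of Slit1, Unc5a, Sema6b and Sema6c were 0.14, 0.09, -0.0319 and 0.02. None of the 19 passed once the trend on GC content was subtracted, where the lowest adjusted p of any member was 0.136 after Restraint and 0.187 after Swim.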

How the results depend on the processing

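No paired analysis was possible because the tables hold group means without values of single libraries, and for the same reason no library could be left out in turn. At 0.01 the called members fell to 2 in ventral Restraint and 7 in ventral Swim. At 0.1 they were 1 in whole Swim, 2 in ventral Handling and 8 in ventral Restraint, and 22 for the ventral minus dorsal response to Swim. For that response 10.2% of all genes already passed at 0.05. The share of all genes was not worked out for 0.01, 0.1, total-count scaling, the length trend or the minimum mean. Counts of members under these settings thus have no background beside them. At an unadjusted p below 0.05 the counts were 4, 3 and 2 in whole, 2, 11 and 13 in dorsal and 11, 22 and 31 in ventral Handling, Restraint and Swim. Scaling by total counts gave 2 in ventral Handling and 2 for the difference in response to Restraint. Subtracting the length trend gave 3 for that difference. Subtracting the GC trend gave 3 members in ventral Restraint, 1 in ventral Swim, 0 for both differences and 0 pathway genes in ventral Swim. The ventral minus dorsal value of Sema6b then turned to -0.0185 after Restraint and -0.0319 after Swim, and its ventral Swim value to -0.07. For the differences, 9 and 7 members then had an unadjusted p below 0.05, and 6 pathway genes did in ventral Swim. The share of all genes at that level was not worked out. These members and genes were not all below it before the subtraction. The cause was not tested. The regional count in Homecage stayed within 1.5 times under every alternative run. A minimum mean of 50 removed Epha2 from ventral Restraint and Swim, where 4 and 13 members were then called, and kept the other counts from the deposited tables within that range, as did 1 entry per gene. Epha2 stayed called in ventral Restraint and Swim under every other alternative run. Per longest transcript Epha4 came first at 67.2 CPM per kb and Slit1 second at 58.5. Nrp1 moved from rank 12 to rank 5, at 38.0 CPM per kb. Of the 15 family leaders by level, 13 changed rank. Scarce members such as Epha2 and Sema3b rest on group means of at most 127 estimated counts.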
